A study of Homo sapiens with 2 samples.

Results

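Expression of 10 tumor-suppressor genes known to be silenced by promoter methylation in colon cancer was examined in single HCT116 cells. The genes were taken by name from both deposited tables, and all 10 of the 33538 listed genes that carry these names were found in each table. They were *CHFR*, *RASSF2*, *GATA4*, *GATA5*, *HIC1*, *FBLN2*, *IGFBP7*, *TIMP3*, *CDH13*, and *UNC5C*. HCT116 is an established human colon cancer cell line. Of the pair of cultures, one was mock-treated and the other received decitabine (DAC) in doses of 0.5 μM, given on day 1 and again on day 3. DAC was withdrawn on day 5, so the cells taken on day 7 had last been in medium without it. Each culture gave 1 droplet-based library of 3′ ends, in which a unique molecular identifier (UMI) marks each captured RNA molecule. The comparison asked which of the 10 genes were silent in mock-treated cells and came back after DAC, in what share of cells, and whether they came back together.

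Depth was a median of 27899 UMIs over 1783 mock-treated cells and of 35340 UMIs over 1751 DAC-treated cells. Both libraries listed 12 barcodes in common. With 1 library per condition, cells are not replicates, so no test was made between conditions, and differences between the cultures other than DAC cannot be told apart from DAC. Intervals are 95% exact intervals, Poisson for UMIs and Clopper-Pearson for shares of cells, and cover counting error only. The label as an epithelial line was checked with markers. In all DAC-treated cells, *KRT18* was present in 98.7%, *KRT8* in 93.2%, *KRT19* in 92.9%, *EPCAM* in 77.1%, *CDH1* in 31.8%, *VIL1* in 3.43%, and *CDX1* in 3.03%, so the keratins and *EPCAM* were common while the intestinal markers *VIL1* and *CDX1* were rare.

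Methylation of a CpG island at a promoter is copied at each division by a maintenance methyltransferase and keeps the gene silent. DAC is a cytidine analog that is built into new DNA and traps DNA methyltransferases there, so that dividing cells lose methylation, and genes that still have their transcription factors can be expressed again. The 10 genes act in different places. *CHFR* is a ubiquitin ligase of an early mitotic checkpoint, *RASSF2* binds RAS and promotes apoptosis, and *GATA4*, *GATA5*, and *HIC1* are transcription factors. *FBLN2*, *IGFBP7*, and *TIMP3* are secreted proteins of the extracellular matrix, and *CDH13* and *UNC5C* are proteins of the cell surface.

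DNA methylation sits on CpG dinucleotides, so those of the promoters are shown first. RefSeq windows from 250 bases before to 50 bases after a transcription start (GRCh38.p14, identical in sequence to hg38) were held for 5 of the 10 genes, *CHFR*, *RASSF2*, *FBLN2*, *TIMP3*, and *UNC5C*. Over 35116 such windows of all genes, the median number of CpG sites was 14. Windows of 4 starts are shown, because, among genes with a window, they belong to those that differed most between the libraries (*FBLN2* and *CHFR*), to 1 gene near the limit (*TIMP3*), and to the gene that was not higher (*RASSF2*). Each is printed 5′ to 3′ on the strand of the gene, with every CpG in capitals. Since CG reads the same on both strands, each site was counted once. The windows are chr3:13548875-13549174 (plus strand), chr12:132887556-132887855 (minus strand), chr22:32801455-32801754 (plus strand), and chr20:4815098-4815397 (minus strand).
FBLN2: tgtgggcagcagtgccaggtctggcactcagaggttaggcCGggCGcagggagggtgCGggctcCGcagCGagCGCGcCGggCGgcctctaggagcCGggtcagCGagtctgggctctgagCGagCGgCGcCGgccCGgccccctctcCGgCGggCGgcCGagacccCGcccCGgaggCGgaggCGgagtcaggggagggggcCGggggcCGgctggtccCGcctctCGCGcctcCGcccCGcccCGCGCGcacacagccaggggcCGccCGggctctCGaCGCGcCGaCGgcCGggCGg
CHFR: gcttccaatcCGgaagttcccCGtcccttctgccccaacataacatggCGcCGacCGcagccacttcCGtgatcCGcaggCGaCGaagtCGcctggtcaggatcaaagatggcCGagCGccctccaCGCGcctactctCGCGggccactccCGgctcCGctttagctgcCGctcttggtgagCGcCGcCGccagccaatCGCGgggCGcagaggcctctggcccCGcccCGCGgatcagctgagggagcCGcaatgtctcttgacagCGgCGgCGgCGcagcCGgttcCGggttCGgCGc
TIMP3: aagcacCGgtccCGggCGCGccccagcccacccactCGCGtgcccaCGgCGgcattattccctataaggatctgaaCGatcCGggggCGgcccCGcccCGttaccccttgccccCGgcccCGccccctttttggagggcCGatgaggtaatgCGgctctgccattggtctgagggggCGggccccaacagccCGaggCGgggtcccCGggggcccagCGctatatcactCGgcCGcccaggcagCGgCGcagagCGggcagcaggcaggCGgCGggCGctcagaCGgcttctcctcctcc
RASSF2: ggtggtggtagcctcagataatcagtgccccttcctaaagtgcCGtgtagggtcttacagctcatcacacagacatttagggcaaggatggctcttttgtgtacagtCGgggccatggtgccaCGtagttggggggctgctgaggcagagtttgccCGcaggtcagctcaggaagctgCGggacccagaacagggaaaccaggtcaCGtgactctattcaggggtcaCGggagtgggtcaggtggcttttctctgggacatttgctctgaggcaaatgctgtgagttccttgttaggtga

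The *FBLN2* window held 43 CpG sites, and 4.98% of all windows held as many or more. The *CHFR* window shown held 37 sites (11.3% of all windows held as many or more), and that of a second, adjacent start held 34. The *TIMP3* window held 31 (20.7%). The *RASSF2* window held 7 sites, and 63.2% of all windows held as many or more. Its observed-to-expected CpG ratio was 0.318 against 0.879 for *FBLN2*, 1.04 for *CHFR*, and 0.788 for *TIMP3*. *UNC5C* held 22 sites (37.7%). The window of *RASSF2* thus held the fewest CpG sites of those shown, but it covers only 1 start, which lies 8.46 kb downstream of the 5′ end of the gene in GENCODE release 44. Both *CHFR* starts lie 68.7 kb downstream of the annotated 5′ end. *FBLN2* has a second start 19.6 kb downstream, whose window held 12 sites. The windows carry no measurement of methylation, and which start was used cannot be read from 3′ counts.

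Of the 10 genes, 8 were silent or nearly silent in mock-treated cells but present in DAC-treated cells, *TIMP3* had a ratio of 1.98, and *RASSF2* was not higher. Summed over the 10 genes, UMIs numbered 175 with mock treatment and 1209 with DAC, a ratio of 5.84 in counts-per-million (CPM), the UMIs of a gene scaled to all UMIs of its library (95% confidence interval 4.98 to 6.88). Most of the mock-treated UMIs, 90.9%, came from *RASSF2* and *TIMP3*. The other 8 genes had 16 UMIs in mock-treated and 1012 in DAC-treated cells. A ratio of 2 or more was taken as the limit for a higher gene, with 3 counts over the library in place of a count of 0. By this limit 8 of the 10 genes were higher in DAC-treated cells and none was lower by the same factor. Among the 19130 genes with 10 UMIs or more over both libraries, 25.4% were higher and 8.39% were lower. The median log2 ratio was 3.99 over the 10 genes, with the 4 genes at 0 in mock-treated cells entered at their lower limits, and 0.32 over those 19130 genes.

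A low count in mock-treated cells leaves a gene little room to be lower, so the 8 genes were also read against genes as low as they were. Each of the 8 had 8 UMIs or fewer in the mock-treated library. Of the 17859 listed genes with that few, 15.5% reached 10 UMIs over both libraries and a ratio of 2. That base lowers the share, because it includes genes with no UMI in either library, which could not be called. Only 25429 of the 33538 listed genes had a UMI. Of the 3452 low genes with 10 UMIs or more over both libraries, 80.2% were higher. The filter raises this share, because such genes mostly pass it through their DAC-treated UMIs. Of the 10 genes, 4, namely *GATA4*, *GATA5*, *IGFBP7*, and *UNC5C*, had no UMI in mock-treated cells and at least 10 in DAC-treated cells, against 5.92% of the 19130 genes. These 5.92% are 1133 genes, all of them among the 3452 low genes that passed the filter. The other 15678 genes had more than 8 UMIs in mock-treated cells and could not meet the condition. Another scaling, by the median of gene ratios, lowered every log2 ratio by 0.18 and left the same count of 8.

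**Figure D1:**
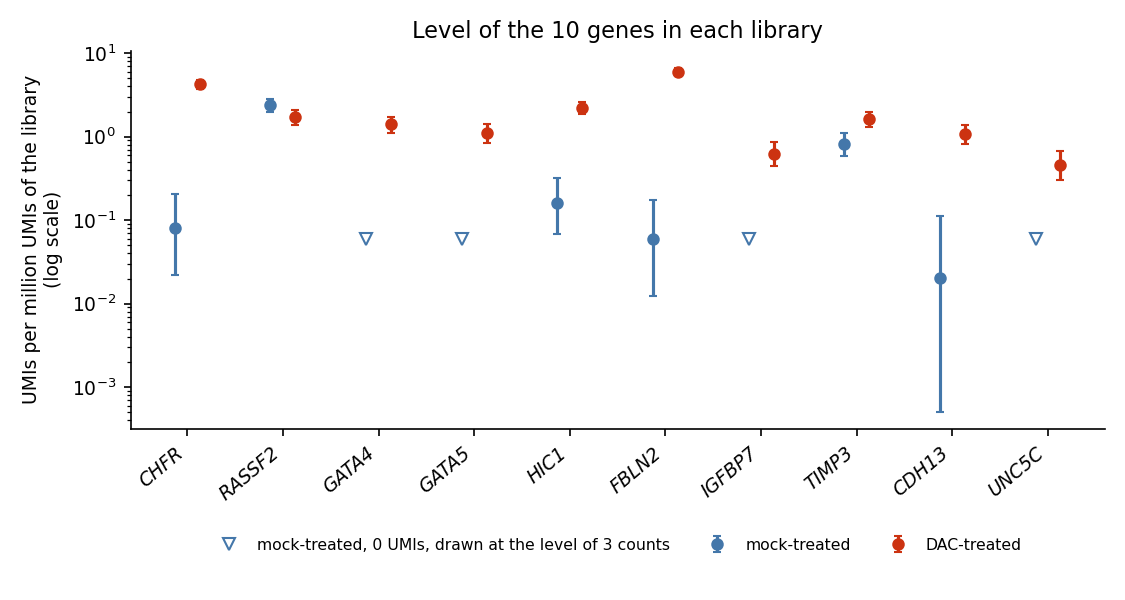
Counts-per-million (CPM, log axis) for each of the 10 genes, in mock-treated (blue) and DAC-treated (red) cells, with 95% Poisson intervals for counting error. The blue triangles mark the 4 genes with 0 UMIs in mock-treated cells, drawn at the level of 3 counts, and only *RASSF2* has its red point below its blue one.

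*CHFR*, which delays entry into mitosis under stress, was the second most abundant of the 10 in DAC-treated cells. It had 4 UMIs in 4 mock-treated cells (0.0801 CPM) and 252 UMIs in 203 DAC-treated cells (4.27 CPM). The ratio was 53.3 (95% confidence interval 20.5 to 197). *CHFR* lies on chromosome 12 of hg38 from 132822187 to 132956304, on the minus strand. Its exons share 125 bases with *GOLGA3*, 127 with *RNU6-327P* (annotated as a small nuclear RNA), and 239 with *ZNF605*, all on the same strand. Reads in those bases cannot be assigned with certainty. *GOLGA3* had 1219 UMIs in mock-treated and 2559 in DAC-treated cells, and *ZNF605* had 3 and 62. The part of these overlapping genes in the count of *CHFR* was not tested.

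*RASSF2*, an effector of RAS with a pro-apoptotic role, was the exception among the 10. It had 118 UMIs in 105 mock-treated cells (2.36 CPM) and 101 UMIs in 92 DAC-treated cells (1.71 CPM). The ratio was 0.724 (95% confidence interval 0.549 to 0.952), below 1 but within the limit of 2 in either direction. It was below 1 under all the alternatives tried, between 0.537 and 0.722. It was 0.695 in cells with 10000 UMIs or more and at most 50% mitochondrial UMIs and 0.537 after thinning to 10000 UMIs. When each library was divided into 3 groups by depth, the groups covered unlike ranges of UMIs, the deepest starting at 33390 in mock-treated and 46367 in DAC-treated cells. In the deepest group *RASSF2* had 2.004 CPM in mock-treated and 1.99 CPM in DAC-treated cells and was detected in 8.75% and 10.8% of the cells. The levels were 2.92 and 1.30 CPM in the middle group and 2.65 and 1.04 CPM in the shallowest. *RASSF2* was thus detected without DAC, in 5.89% of mock-treated cells (95% confidence interval 4.84 to 7.08%), and in 5.25% of DAC-treated cells (4.26 to 6.41%). It lies on chromosome 20 from 4780023 to 4823608, on the minus strand, and no annotated gene overlaps it.

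The GATA factors bind a shared DNA motif through zinc fingers and are needed for differentiation of the gut epithelium. *GATA4* (chromosome 8, from 11676959 to 11760002, plus strand) had no UMI in mock-treated cells but 83 UMIs in 75 DAC-treated cells (1.41 CPM), and was at least 23.4-fold higher. *GATA5* (chromosome 20, from 62463497 to 62475995, minus strand) had no UMI in mock-treated cells but 65 UMIs in 52 DAC-treated cells (1.10 CPM), and was at least 18.3-fold higher. No annotated gene overlaps either of them. The third transcription factor, *HIC1*, is a zinc-finger repressor that is induced by p53. It had 8 UMIs in 8 mock-treated cells (0.160 CPM) and 131 UMIs in 109 DAC-treated cells (2.22 CPM), a ratio of 13.8 (95% confidence interval 6.82 to 32.7). *HIC1* lies on chromosome 17 from 2054154 to 2063241, on the plus strand, and its exons share 2419 bases with *SMG6* on the opposite strand. Whether the counting used the strand is not given in the sources used here, so reads in those bases cannot be told apart. *SMG6* had a ratio of 1.48 (1.37 to 1.61), from 951 to 1668 UMIs.

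Among the secreted proteins, *FBLN2*, a fibulin of basement membranes and elastic fibers, had the highest level of the 10 in DAC-treated cells. It had 3 UMIs in 3 mock-treated cells (0.0601 CPM) and 354 UMIs in 259 DAC-treated cells (5.995 CPM). The ratio was 99.7 (95% confidence interval 33.9 to 486). *FBLN2* is on chromosome 3 from 13549125 to 13638422, on the plus strand. *IGFBP7*, which binds insulin-like growth factors, was far rarer. It had no UMI in mock-treated cells but 37 UMIs in 23 DAC-treated cells (0.627 CPM), and was at least 10.4-fold higher. *IGFBP7* (chromosome 4, from 57030773 to 57110385, minus strand) shares 260 exon bases with *POLR2B* on the opposite strand, whose ratio was 1.19 (1.13 to 1.26).

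*TIMP3*, an inhibitor of metalloproteinases that is bound to the matrix, was detected without DAC as well. It had 41 UMIs in 34 mock-treated cells (0.821 CPM) and 96 UMIs in 71 DAC-treated cells (1.63 CPM). The ratio of 1.98 (95% confidence interval 1.36 to 2.93) was just under the limit of 2. A single DAC-treated cell held 10 of the 96 UMIs, and the ratio was 1.78 without that cell. With the mean of CPM over single cells, which gives small cells the same weight, the ratio was 4.01, after thinning each cell to 10000 UMIs it was 2.24, and without cells that held a marker of another cell type it was 1.502. *TIMP3* is on chromosome 22 from 32801705 to 32863041, on the plus strand, within the annotated span of *SYN3* on the opposite strand, and shares no exon base with it.

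The surface proteins were at or near 0 in mock-treated cells. *CDH13* encodes a cadherin that is anchored by lipid and has no cytoplasmic tail, and *UNC5C* encodes a netrin receptor that triggers apoptosis when its ligand is missing. *CDH13* had 1 UMI in 1 mock-treated cell and 63 UMIs in 53 DAC-treated cells (1.07 CPM), a ratio of 53.3 (95% confidence interval 9.22 to 2136). Its only mock-treated UMI was in a cell with 9856 UMIs, of which 53.7% were mitochondrial. The ratio was at least 16.7 in cells with 10000 UMIs or more and at most 50% mitochondrial UMIs, 17.2 with the mean of CPM over single cells, and 33.8 without cells that held a marker of another cell type. *UNC5C* had no UMI in mock-treated cells but 27 UMIs in 25 DAC-treated cells (0.457 CPM), and was at least 7.61-fold higher. *CDH13* spans chromosome 16 from 82626965 to 83800640 on the plus strand, and shares 2354 exon bases with *CDH13-AS2* on the opposite strand. *UNC5C* lies on chromosome 4 from 95162504 to 95549206 on the minus strand, and shares 78 exon bases with *UNC5C-AS1*.

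Because a 3′ library gives a molecule the same chance of a tag whatever its length, the levels of the genes were ordered in CPM without scaling to length. In DAC-treated cells, *FBLN2* (95% confidence interval 5.39 to 6.65 CPM) was above *CHFR* (3.76 to 4.83), and *CHFR* was above *HIC1* (1.85 to 2.63). From *HIC1* down, through *RASSF2*, *TIMP3*, *GATA4*, *GATA5*, *CDH13*, *IGFBP7*, and *UNC5C*, the intervals of neighbors overlapped. *FBLN2* and *CHFR* together gave 50.1% of the UMIs of the 10 genes. Among the 14099 detected genes that never exceeded 2 UMIs in a mock-treated cell, *FBLN2* ranked 282nd and *CHFR* 493rd by UMIs in DAC-treated cells, and *UNC5C*, the lowest of the 8, ranked 4190th.

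Even the most frequent of the genes was seen in a minority of cells. *FBLN2* was present in 14.8% of DAC-treated cells (95% confidence interval 13.2 to 16.5%) against 0.168% of mock-treated cells (0.0347 to 0.491%). *CHFR* was present in 11.6% (10.1 to 13.2%) against 0.224%, and *HIC1* in 6.23% (5.14 to 7.46%) against 0.449%. Free RNA in the DAC-treated droplets was not measured, and its part in these shares was not tested. *GATA4* was present in 4.28% (3.38 to 5.34%), *GATA5* in 2.97% (2.23 to 3.88%), and *CDH13* in 3.03% (2.28 to 3.94%) of DAC-treated cells. For *GATA4* and *GATA5*, 0 of 1783 mock-treated cells allows a share of up to 0.207% of cells with a UMI, which does not limit the share of cells that express the gene. *IGFBP7* and *UNC5C* were detected in 1.31% (0.834 to 1.96%) and 1.43% (0.926 to 2.10%) of DAC-treated cells. *TIMP3* was detected in 4.05% (3.18 to 5.09%) against 1.91% (1.32 to 2.65%) of mock-treated cells, so its intervals did not overlap, whereas those of *RASSF2* did.

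**Figure D2:**
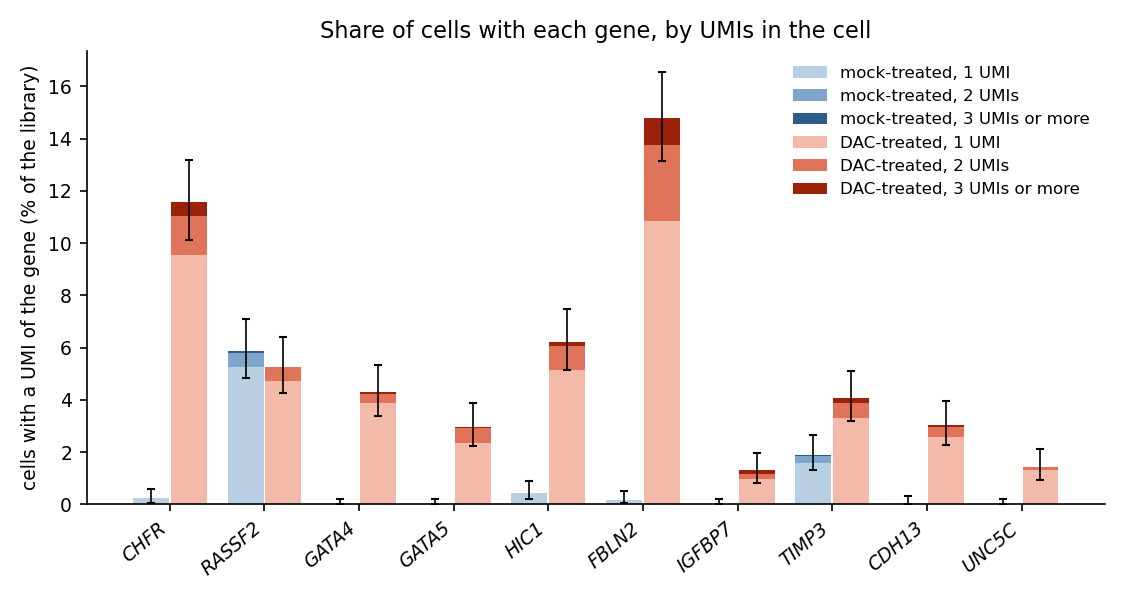
Share of the cells of each library with a UMI of each gene (%), stacked by the number of UMIs in the cell, in mock-treated (blue) and DAC-treated (red) cells, with 95% Clopper-Pearson intervals of the whole share. Most positive cells had 1 UMI, and the darkest part, 3 UMIs or more, was largest for *FBLN2*.

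Positive cells mostly held a single UMI. Over the 10 genes, a positive DAC-treated cell held a mean of 1.26 UMIs of the gene. The mean was 1.37 for *FBLN2*, with 2 UMIs or more in 69 of its 259 positive cells (26.6%), and 1.24 for *CHFR*, with 2 or more in 36 of 203 (17.7%). It was 1.08 for *UNC5C* and 1.11 for *GATA4*, close to 1.01 and 1.04, the means for UMIs spread over cells in proportion to their depth. *RASSF2* also had similar means in both libraries, 1.12 in mock-treated and 1.10 in DAC-treated cells.

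For *IGFBP7* the UMIs were gathered in fewer cells. Its mean was 1.61 UMIs per positive cell, and its 37 UMIs included 1 cell with 6 UMIs and 2 cells with 4. A spread in proportion to depth would have put them in 36.4 cells, and they were in 23, a ratio of 0.632. The ratio was 0.771 for *TIMP3*, 0.823 for *GATA5*, and 0.851 for *FBLN2*, and lay between 0.865 and 0.952 for the other 6 genes. Over the 5961 genes with as many UMIs in DAC-treated cells as the 10 genes (27 to 354), the median of this ratio was 0.948 and the quartiles were 0.902 and 0.980. Only 2.97% of those genes had a lower ratio than *IGFBP7*. In mock-treated cells the ratio of *TIMP3* was 0.843, on 41 UMIs in 34 cells. It has no interval, and the quartiles above are those of DAC-treated cells, so unevenness without DAC was not tested. At 3 UMIs or more in a cell, *RASSF2* had 2 mock-treated cells and no DAC-treated cell, and *TIMP3* had 1 mock-treated and 3 DAC-treated cells. Of the other 8 genes, which never exceeded 2 UMIs in a mock-treated cell, 7 reached 3 UMIs in a DAC-treated cell, against 19.7% of the 14099 genes of that kind. Those 14099 genes were not matched for level. By UMIs in DAC-treated cells the 8 ranked between 282nd and 4190th of them, and genes with fewer UMIs are less able to reach 3 in a cell. *UNC5C* reached at most 2 UMIs.

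Detection depended on the depth of the cell. Cells were sorted by total UMIs into 3 groups of nearly equal size in each library. At least 1 of the 10 genes was present in 9.93% of the DAC-treated cells with the fewest UMIs, 46.7% of the middle group, and 58.1% of the cells with the most. In mock-treated cells the shares were 3.19%, 9.93%, and 12.3%. *CHFR* went from 2.57% to 13.5% and 18.7%, and *GATA4* from 0.171% to 4.45% and 8.23%. *GATA5* had 4.45% and 4.29% in the middle and the deepest group, and *IGFBP7* 1.88% and 1.72%. The intervals of these groups overlapped for all genes other than *RASSF2*, which had 4.45% (2.93 to 6.46%) and 10.8% (8.40 to 13.6%). In CPM, *FBLN2* was highest in the shallowest group, with 8.31, 6.97, and 5.27, and *GATA4* was lowest there, with 0.346, 1.35, and 1.52. The shallowest group held only 23 *FBLN2*-positive cells and 1 *GATA4*-positive cell. Each share of cells is therefore a share at the depth of that group. In cells with 10000 UMIs or more and at most 50% mitochondrial UMIs, at least 1 of the 10 genes was present in 51.5% of 1120 DAC-treated and 10.9% of 1298 mock-treated cells.

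**Figure D3:**
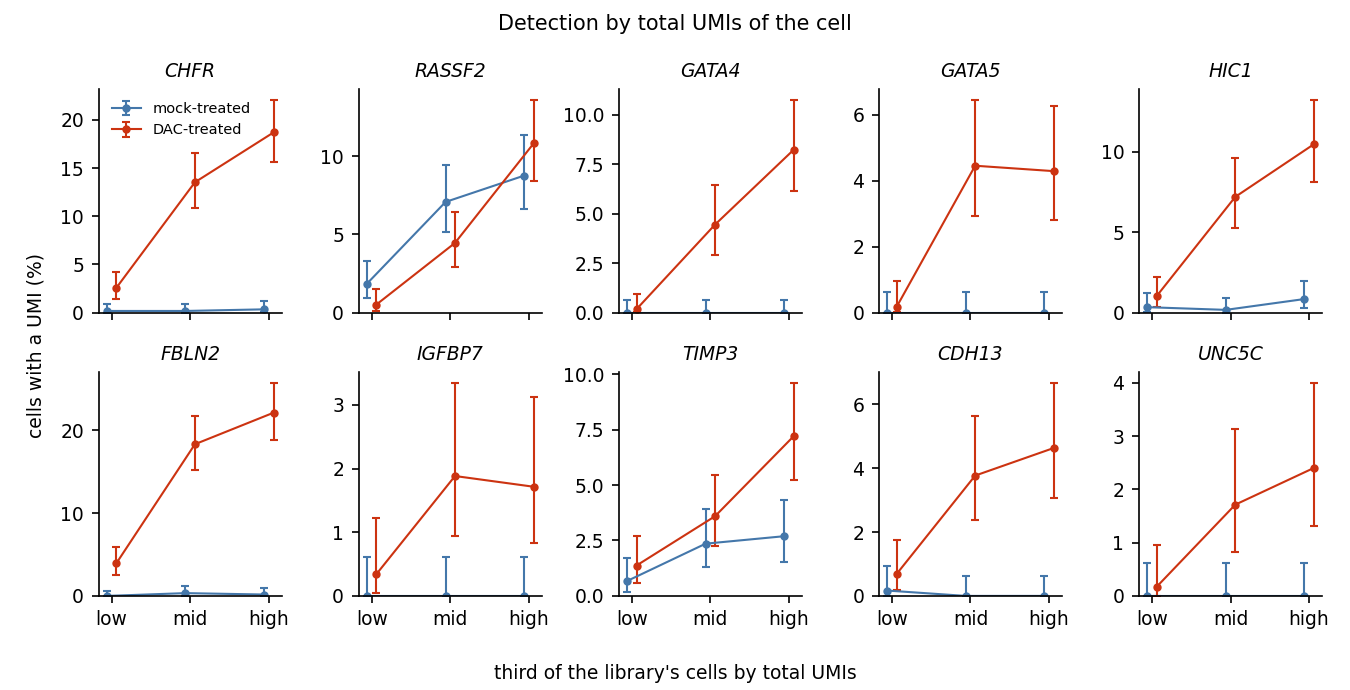
Share of cells with a UMI of each gene (%), with 95% Clopper-Pearson intervals, in 3 groups of each library's cells by depth, those with the fewest (low), middle, and most (high) total UMIs. The DAC-treated line (red) lies above the mock-treated line (blue) in every group for all genes other than *RASSF2*, and both lines of *RASSF2* climb with depth.

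After DAC, 670 cells held at least 1 of the 10 genes (38.3%, 95% confidence interval 36.0 to 40.6%), and 151 mock-treated cells did (8.47%, 7.22 to 9.86%). A single gene was present in 448 DAC-treated cells, 2 genes in 163, 3 genes in 48, and 4 genes in 11, and no cell had 5. In mock-treated cells, 147 had 1 gene and 4 had 2. These numbers were set beside those from independent detection, computed from the shares of the genes within 10 groups of cells of similar total UMIs. By that count 207.9 DAC-treated cells would have 2 genes or more, and 222 did, a ratio of 1.07. The Poisson interval of the observed number gave a ratio between 0.932 and 1.22, which includes 1. Without the depth groups the ratio was 1.29, farther from 1 than with them. For 3 genes or more, 59 cells were observed (interval 44.9 to 76.1) against 40.2, and for 4 genes 11 (5.49 to 19.7) against 5.30. At 2 UMIs or more per gene, 13 DAC-treated cells had 2 genes or more (interval 6.92 to 22.2) against 11.0. Of these, 3 had 3 genes (0.619 to 8.77) against 0.449. At 3 UMIs or more per gene, 40 DAC-treated cells had 1 of the genes and none had 2, with 0.523 cells from independent detection.

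**Figure D4:**
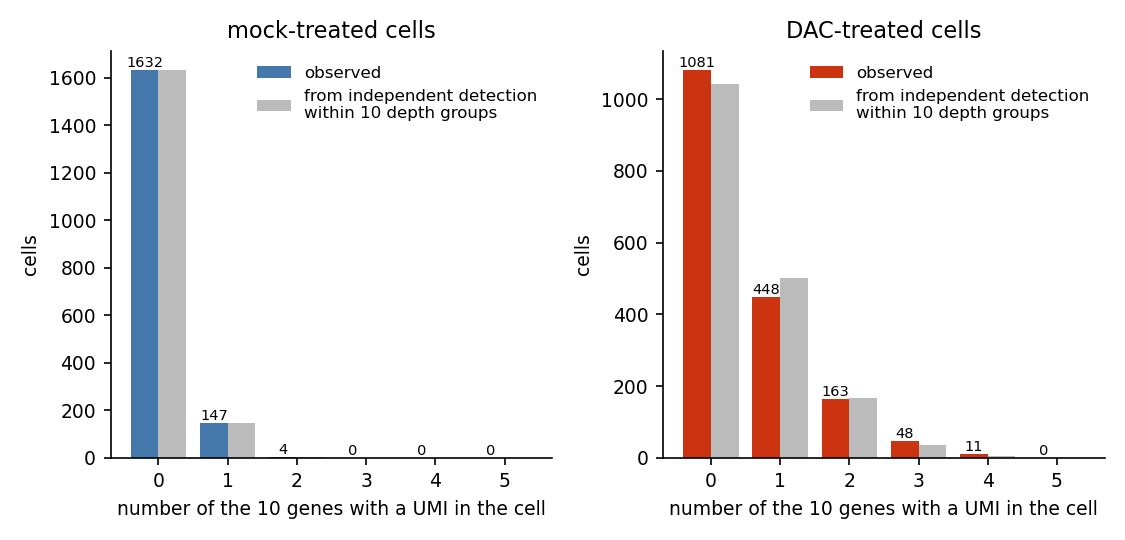
Number of cells by how many of the 10 genes had a UMI in the cell, observed (colored bars, with their numbers) and from independent detection within 10 groups of cells by total UMIs (gray bars), in mock-treated (left) and DAC-treated (right) cells. In DAC-treated cells the observed bar is lower for 1 gene (448 against 500.2 cells) and higher for 0 genes (1081 against 1043), 3 genes (48 against 34.9), and 4 genes (11 against 4.82).

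All but 1 of the 45 pairs of genes were found together in at least 1 DAC-treated cell. Summed over pairs, 373 pairs were observed in cells against 306.4 from independent detection within depth groups, a ratio of 1.22. Pairs that include *RASSF2*, which was not higher after DAC, had a ratio of 1.16 (78 against 67.0), and the others 1.23 (295 against 239.3). For 2 of the 45 pairs the interval of the observed number was above the independent number, and for none below. *CHFR* and *HIC1* were together in 26 cells (17.0 to 38.1) against 16.8, and *CHFR* and *CDH13* in 15 (8.40 to 24.7) against 7.82. *GATA4* and *GATA5*, encoded on different chromosomes, were together in 4 cells (1.09 to 10.2) against 3.34. With 45 pairs and no replicate library, these values are descriptions. Thinning each cell to 10000 UMIs left 30 cells with 2 genes or more.

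Cells with a UMI of these genes also held more UMIs of other genes that were low without DAC. Among the DAC-treated cells of the deepest group, the other genes that never exceeded 2 UMIs in a mock-treated cell had a median of 13146 CPM in *CHFR*-positive cells and 10834 in the rest. In *UNC5C*-positive cells the median was 14155 against 11054, and in *FBLN2*-positive cells 11796 against 10941. *RASSF2*-positive cells showed the same direction, 12959 against 10919, and all 10 genes had the higher median in their positive cells. Positive cells in that group numbered 109 for *CHFR*, 14 for *UNC5C*, 129 for *FBLN2*, 63 for *RASSF2*, and only 10 for *IGFBP7*. Within that group, total UMIs had medians of 57361 and 59335 for *CHFR*-positive and other cells, and of 63784 and 58707 for *RASSF2*.

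Relatives and partners of the 10 genes were counted from lists of families, partners, and targets. Of 75 such genes, 61 had 10 UMIs or more over both libraries, and 25 of these (41.0%) were higher by a factor of 2 and 3 (4.92%) were lower, against 25.4% and 8.39% of all genes. The counts rest in part on genes that are low in mock-treated cells. Of the 14 relatives with 8 UMIs or fewer there, 13 were higher (80.2% of all such genes that passed the filter), and of the other 47 relatives 12 (25.5%) were higher, against 13.3% of all such genes. The median log2 ratio was 0.55. With median-of-ratios scaling, *PLK1* and *RASSF9* were no longer past the limit and *FBLN5* was lower by it. Known targets of *GATA4* and *GATA5* were counted as well. The mucosal trefoil peptides *TFF2* and *TFF3* had no UMI in mock-treated cells but 268 and 247 UMIs in DAC-treated cells, and were at least 75.5- and 69.6-fold higher. Of the 4 targets with enough UMIs, 3 were higher, the third being *INHA*, a subunit of inhibin (0 and 30 UMIs). All 3 had no UMI in mock-treated cells and so passed the filter through DAC-treated cells, where 80.2% of genes that low were higher, while *DAB2*, an endocytic adaptor, had a ratio of 1.95 (1.69 to 2.25). *TFF1* had 2 UMIs in all. In single cells, *TFF2* was found in 11 *GATA4*-positive cells against 12.7 from independent detection, and in 11 *GATA5*-positive cells (interval 5.49 to 19.7) against 7.65, and both intervals included the independent number. In the list of other GATA factors and their FOG cofactors, *GATA2* (ratio 2.37) and *GATA6* (2.50) were higher, and *GATA3* (0.685) and the cofactor *ZFPM2* (0.792) had the lowest ratios of the 5 genes counted.

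For the families of the secreted and surface proteins, counts are read against the 25.4% of all genes that were higher, and against 80.2% for genes with 8 UMIs or fewer in mock-treated cells that passed the same filter. *IGFBP4*, *IGFBPL1*, *EFEMP1*, *HMCN1*, *HMCN2*, *TIMP4*, *MMP1*, *MMP2*, *CDH2*, and *CDH17* were such genes, and of these only *HMCN1* (6 and 8 UMIs, ratio 1.13) was not higher. Of 5 counted relatives of *IGFBP7*, 4 were higher, among them *IGFBP4* (0 and 182 UMIs, at least 51.3-fold), *IGFBPL1* (0 and 16 UMIs, at least 4.51-fold), and *IGFBP6* (ratio 3.67). The lowest ratios were those of *IGFBP3* (3.65) and *IGFBP2* (1.20). Of 7 fibulins and hemicentins, 3 were higher, with *HMCN2* at 7.49 and *EFEMP1* at 0 and 21 UMIs (at least 5.92-fold), while *FBLN5* had the lowest ratio, 0.521, followed by *FBLN7* with 0.604. Of 10 TIMPs and proteinases, 5 were higher, with *MMP1* at 20.3 (3.31 to 834) and *MMP2* at 13.5 (2.10 to 567), both on 1 UMI in mock-treated cells, and *MMP7*, a matrilysin of tumor epithelium, was lower, at 0.311 (0.188 to 0.498), followed by *ADAM17* at 0.715. Of 4 counted cadherins, *CDH2*, the neural cadherin, had 0 and 48 UMIs (at least 13.5-fold), *CDH17* had 1 and 9 UMIs, and the epithelial *CDH1* (0.916) and *CDH3* (0.837) had ratios slightly under 1.

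The netrin family of *UNC5C* had ratios below 1 in all 5 counted genes, as 35.4% of all genes tested did. None was higher and 2 were lower, *UNC5A* at 0.393 (0.272 to 0.561) and *UNC5B* at 0.429 (0.392 to 0.470), with *NTN1* at 0.917 (0.634 to 1.33) and *NTN4* at 0.820 (0.576 to 1.17), whose intervals included 1. *DCC*, another receptor silenced in colon cancer, had 0 and 1 UMI. Among the relatives and substrates of *CHFR*, *AURKA* and *PLK1*, kinases that drive mitosis, had ratios of 2.94 (2.77 to 3.12) and 2.23 (2.12 to 2.35), while *RNF8* (1.30) and *KIF22* (1.42) were below the limit. Of 6 relatives and targets of *HIC1*, only *HIC2* was higher (2.94), followed by *EPHA2* (1.58), and *CTBP1* and *CTBP2* had the lowest ratios, both 1.20. *ACKR3*, which *HIC1* represses, had no UMI in either library. In the list of RASSF genes and their MST kinase partners, 3 of 11 were higher, led by *RASSF7* (2.62) and *RASSF5* (2.59), and the lowest ratios were those of the kinase *STK3* (0.906) and of *RASSF6* (1.02). The 8 RASSF genes counted there all had ratios above that of *RASSF2*.

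**Figure D5:**
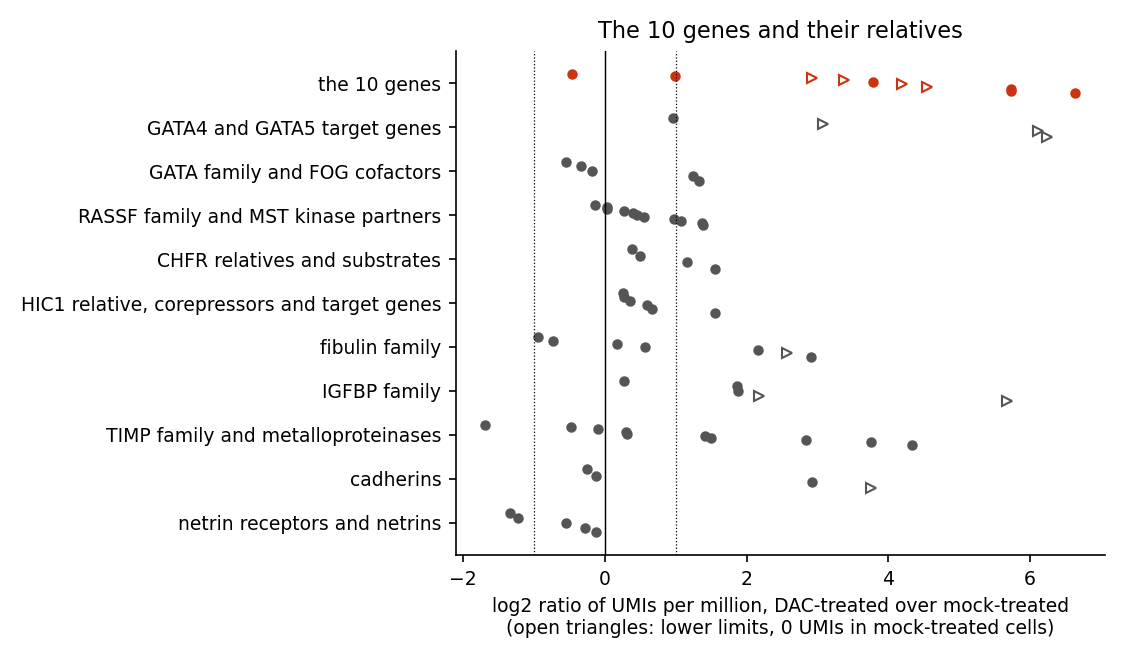
Log2 ratio of CPM, DAC-treated over mock-treated cells, for the 10 genes (red) and for their relatives by list (gray), for genes with 10 UMIs or more over both libraries; open triangles are lower limits for genes with 0 UMIs in mock-treated cells, and dotted lines mark a factor of 2. As many as 8 of the 10 genes lie to the right of the upper dotted line, and none of the netrin family does.

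*IGFBP7*, *FBLN2*, *TIMP3*, and *CDH13* are abundant in stroma and vessels, so markers of those cells were counted. In DAC-treated cells the summed level was 30.9 CPM for 8 fibroblast and smooth muscle markers (16.4 in mock-treated cells), 2.40 for 5 endothelial markers (0.2204), and 1.46 for 4 leukocyte markers (0.260). Of the markers with enough UMIs, 3 of 6, 3 of 3, and 4 of 4 were higher by a factor of 2, against 25.4% of all genes and 80.2% of genes with 8 UMIs or fewer in mock-treated cells that passed the same filter. In mock-treated cells *COL1A2*, *DCN*, *LUM*, *PECAM1*, *CDH5*, *CLDN5*, *PTPRC*, and *CD3E* were at 0, and in DAC-treated cells they had 9, 31, 5, 46, 5, 27, 16, and 24 UMIs. *THY1* had 1 and 332 UMIs. Not all markers rose. *KDR* had 5 and 2 UMIs, too few to be counted, *COL3A1* had 5 and 5, and *ACTA2* had 274 and 317 (ratio 0.978). The remaining markers, *COL1A1*, *PDGFRB*, *VWF*, *CD14*, and *LYZ*, had more UMIs in DAC-treated cells. Without the cells that held a UMI of any of these markers other than *COL1A1* and *ACTA2*, 1381 DAC-treated cells were left, and again 8 of the 10 genes were higher by a factor of 2. In DAC-treated cells with a UMI of the 10 genes and in the others, the levels were 32.9 and 28.8 CPM for the fibroblast and smooth muscle list, 2.85 and 1.90 CPM for the endothelial list, and 1.83 and 1.04 CPM for the leukocyte list. In the same cells with a UMI of the 10 genes, *KRT18* was present in 669 and *KRT8* in 666 of 670, and *EPCAM* was present in 92.5% of them and 67.5% of the others. Such shares rise with depth, and the positive cells were deeper (median 46628 against 19209 UMIs). In CPM the epithelial markers were lower in the positive cells than in the others. The levels were 211 against 234 for *EPCAM*, 1791 against 2011 for *KRT8*, 4189 against 4383 for *KRT18*, and 1446 against 1632 for *KRT19*. The part of the markers of other cell types in the detection of the 10 genes was not tested beyond leaving out marker-positive cells. Without the marker-positive cells, at least 1 of the 10 genes was present in 32.3% of DAC-treated and 8.46% of mock-treated cells.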

How the data were processed

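The deposited files hold unnormalized UMI counts (whole numbers, cells by genes) from 1 mock-treated and 1 DAC-treated library. To make them, the authors ran Cell Ranger against hg38. The annotation release and any filter on cells are not given in the sources used here. The 10 genes and all lists of relatives and markers were chosen with earlier results of these data known. Counts were summed over all deposited cells and divided by library totals (49911689 mock-treated and 59046165 DAC-treated). Ratios have exact conditional binomial 95% intervals. Doublets were not called in a single cell line. Independent detection was computed from the product of shares within 10 groups of cells by total UMIs. Named relatives were the 2 highest and 2 lowest ratios of each list with 10 UMIs or more, and further genes (*IGFBP6*, *RASSF9*, *HMCN1*, *TIMP4*, *TFF1*, *DCC*, *ACKR3*, and single markers) were named after their values were seen. The result of 1 marker is not reported here, and it was left out of its list. Positions and exon overlaps are from GENCODE release 44, and promoter windows from RefSeq (GRCh38.p14). Alternatives were cell filters, thinning to 1007 or 10000 UMIs per cell, scaling, limits, and detection thresholds. Leaving out cells with markers of other cell types, or the cell with the most UMIs of a gene, was added after seeing the data. Python 3.11.15, numpy 2.4.6, scipy 1.17.1, pandas 2.3.3, and matplotlib 3.10.9 were used, and the computations were tested on simulated data.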

Additional observations from a re-analysis of the deposited data

How the results depend on the processing

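The number of the 10 genes with a ratio of 2 or more was 8 under 7 alternatives, namely 4 filters on cells, thinning to 10000 UMIs, median-of-ratios scaling, and a limit of 4. After thinning to 10000 UMIs the 8 genes were not the same, as *TIMP3* (2.24) was in and *UNC5C* (at least 1.79) was out. Averaging CPM over cells gave 9, with *TIMP3* added. In these counts the filter of 10 UMIs over both libraries was not applied to the 10 genes, and a ratio needed more than 3 UMIs in at least 1 library. The number of higher genes was 2 (*CHFR* and *FBLN2*) after thinning to 1007 UMIs, where 4 genes had enough UMIs for a ratio. There *FBLN2* was at least 2.14-fold and *HIC1* at least 1.78-fold higher, on 6 and 5 UMIs in DAC-treated cells and none in mock-treated cells. Of the DAC-treated cells, those with at least 1 gene were 51.5% (10.9% of mock-treated cells) in cells with 10000 UMIs or more and at most 50% mitochondrial UMIs, 1.95% (0.486%) after thinning to 1007 UMIs, 18.3% (3.67%) after thinning to 10000 UMIs, 9.37% (0.953%) with 2 UMIs and 2.28% (0.168%) with 3 UMIs required for detection, and 32.3% without cells that held a marker of another cell type. UMIs per positive cell were 1.03 and 1.07 after thinning to 1007 and 10000 UMIs. Cells with 2 genes or more over the number from independent detection were 0, on 0 cells, at 1007 UMIs, 1.47 on 30 cells at 10000 UMIs, and 1.29 without depth groups. Over all genes, 2875 in place of 4855 were higher with a filter of 50 UMIs, which counts fewer genes. No ratio of a called gene changed direction. After thinning to 10000 UMIs, *GATA4*, *GATA5*, *IGFBP7*, *UNC5C*, and *CDH13* had no UMI in mock-treated cells and lower limits of 5.01, 6.80, 2.15, 1.79, and 5.37, as fewer UMIs give a smaller limit, and the ratio of *HIC1* was 7.78. Leaving out the 12 shared barcodes left every value within its interval. No paired analysis was possible because each condition has 1 library. A single library per condition limits every comparison, and shares of cells are limited by depth, since most positive cells held 1 UMI.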

Other observations

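Genes whose levels followed those of a member from cell to cell were sought among 1120 DAC-treated cells with 10000 UMIs or more and at most 50% mitochondrial UMIs, over 13543 genes, by Pearson correlation of log2(CPM + 1), as a description. The 3 highest correlations were 0.18, 0.17, and 0.15 for *CHFR* (*SYCP3*, AC004835.1, and *NELL2*), and 0.19, 0.18, and 0.16 for *GATA4* (*KIF1A*, *BARX1*, and *DLC1*). For *FBLN2* they were 0.16, 0.14, and 0.13 (*DAZL*, *LINC01980*, and *ITGB1*), and for *HIC1* 0.17, 0.16, and 0.15 (*TKTL1*, *ODC1*, and *PIM3*). The highest for *RASSF2* was 0.14 (*RIN2*). In counts this sparse, correlations of this size are no finding, and all cells share the library and its depth.

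None of the *GATA4*-positive and none of the *GATA5*-positive DAC-treated cells had more than 50% mitochondrial UMIs, against 39 of the 259 *FBLN2*-positive cells (15.1%) and 22 of the 203 *CHFR*-positive cells (10.8%). Among DAC-treated cells without any of the 10 genes the share was 22.8%. Positive cells were deeper, with a median of 46628 UMIs against 19209, and the relation of these shares to depth was not tested.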
